A study of Mus musculus with 2 samples.

Results

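The translation-factor copies described here are 6 numbered copies of eIF1A (Eif1ad3, Eif1ad4, Eif1ad6, Eif1ad7, Eif1ad8 and Eif1ad15) and 1 copy of eIF4A3 (Eif4a3l1). They were taken by symbol, as 7 of the 55415 features counted in each library, and they had been chosen because they stood far apart between the libraries, so that contrast is given as a description. The mouse embryonic stem cell line carried H2B-mIFP as a tracer and a GFP reporter driven by the MERVL promoter, MERVL being a retroviral element that is switched on in 2-cell embryos. One single-cell library was labelled MERVL-GFP positive and 1 MERVL-GFP negative; both come from that line, the labels name no clone, treatment or time, and how cells were parted by GFP is not given in the sources used here. The labels name every library as a batch of its own: group and batch cannot be told apart, and with 1 library a group no test between them was possible.

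Translation begins when a small ribosomal subunit loaded with initiation factors moves along the leader of an mRNA to a start codon, and eIF1A sits in that subunit and helps it scan and choose the start. eIF4A3 is the RNA helicase at the core of the exon junction complex, which splicing leaves on mRNA and which later acts in export, translation and nonsense-mediated decay. A minor part of embryonic stem cells passes through a 2-cell-like state, in which MERVL and the Zscan4 gene cluster are active, and several of the copies described here are known for expression in that state and in the 2-cell embryo. The housekeeping genes set beside them are Eif1a and Eif1ax, which encode eIF1A, and Eif4a3; Eif1ad, which shares the symbol of the copies but little of their sequence, was carried along as well. These 4 are called reference genes below.

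All 17 numbered Eif1ad copies of the annotation lay in one stretch of chromosome 12, chr12:87494721-88329682 (GRCm38, GENCODE M21), which is 834962 bases long. The members were Eif1ad8 (ENSMUSG00000079034, chr12:87514316-87518266, + strand), Eif1ad6 (ENSMUSG00000092019, chr12:87618869-87622955, +), Eif1ad3 (ENSMUSG00000072905, chr12:87874072-87877859, +), Eif1ad4 (ENSMUSG00000113971, chr12:87895370-87895804, +), Eif1ad7 (ENSMUSG00000079029, chr12:88270640-88274500, −) and Eif1ad15 (ENSMUSG00000093847, chr12:88320122-88324026, −). Of these, 5 were annotated with 2 exons and untranslated ends, while the model of Eif1ad4 held 1 exon of 435 bases with no untranslated part. Eif4a3l1 (ENSMUSG00000094973) lay elsewhere, at chr6:136327539-136329983 on the + strand, in 2 exons.

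The coding parts of the 6 Eif1ad members had 432 bases, as many as Eif1a and Eif1ax. Pairs of members were 97.0% to 99.1% identical, differing at 4 to 13 bases. They were 93.8% to 95.1% identical to Eif1a and 83.6% to 85.0% identical to Eif1ax. Eif1ad, with 510 coding bases, was much less alike: bases identical to a member came to 47.8% to 49.4% of that length. The stretch from coding base 231 to 290 is shown because 8 of the 22 positions at which the 6 copies differ among themselves fall in it; bases are counted from 1 at the first base of the start codon, and capitals mark bases that differ from Eif1ax.
Eif1ax: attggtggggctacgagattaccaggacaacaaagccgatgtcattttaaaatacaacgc
Eif1ad3: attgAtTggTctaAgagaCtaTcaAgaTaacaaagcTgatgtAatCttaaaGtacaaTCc
Eif1ad4: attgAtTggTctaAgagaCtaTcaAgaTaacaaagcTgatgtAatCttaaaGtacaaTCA
Eif1ad6: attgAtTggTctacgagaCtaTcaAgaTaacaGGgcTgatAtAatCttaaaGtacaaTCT
Eif1ad7: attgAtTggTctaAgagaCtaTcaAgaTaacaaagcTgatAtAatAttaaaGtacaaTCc
Eif1ad8: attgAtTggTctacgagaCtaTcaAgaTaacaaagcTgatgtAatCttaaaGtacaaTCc
Eif1ad15: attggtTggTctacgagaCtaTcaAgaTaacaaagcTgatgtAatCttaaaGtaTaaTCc
The copies differed from Eif1ax at 13 to 17 of these bases and shared most of those differences.

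Eif4a3l1 had 1233 coding bases, as did Eif4a3, and differed from it at 47 of them (96.2% identical). Its other copy in the annotation, Eif4a3l2 on chromosome 6, was 98.5% identical to Eif4a3l1. The stretch from coding base 6 to 65 is shown because 8 of the 47 differences lie there; capitals mark bases that differ from Eif4a3.
Eif4a3: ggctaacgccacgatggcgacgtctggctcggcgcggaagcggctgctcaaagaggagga
Eif4a3l1: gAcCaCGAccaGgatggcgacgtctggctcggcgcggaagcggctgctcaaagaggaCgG
Both genes read the same over most of the later part of that stretch, and a short read lying wholly there cannot be assigned to one of them.

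Near-identity limits how far a count can be pinned to 1 copy. Of all windows of 60 bases along the annotated transcripts, 87.5% were found in no annotated transcript of another gene for Eif1ad15 and 78.8% for Eif1ad8. The share was 27.1% for Eif1ad7, 21.7% for Eif1ad3, 8.78% for Eif1ad4 and 6.20% for Eif1ad6, and 56.4% for Eif4a3l1. How reads that match several copies were counted is not given in the sources used here. The sum of the 6 Eif1ad members is therefore the main value below, and values of single copies other than Eif1ad8 and Eif1ad15 are the most uncertain. Eif1ad6 shows the size of the doubt, with 24974 molecule counts (UMIs) in the positive library against 198 for Eif1ad2. Both have the same coding sequence, and 4.52% of the windows of Eif1ad2 were found in no other gene's transcript.

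Promoters of 2 of the 7 members, Eif4a3l1 and Eif1ad6, were in the RefSeq promoter table (GRCm38.p6). Their 160 bases before the GENCODE start are shown because counts of both genes had r = 0.65 across cells, as described below; they cover chr6:136327379-136327538 and chr12:87618709-87618868, both on the + strand.
Eif4a3l1: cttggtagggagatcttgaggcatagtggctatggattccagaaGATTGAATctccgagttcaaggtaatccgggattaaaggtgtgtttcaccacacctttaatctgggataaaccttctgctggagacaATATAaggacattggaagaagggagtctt
Eif1ad6: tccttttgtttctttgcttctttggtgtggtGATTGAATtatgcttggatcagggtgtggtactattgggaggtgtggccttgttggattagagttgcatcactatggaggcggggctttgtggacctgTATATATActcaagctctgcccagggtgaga
Capitals mark the letters GATTGAAT and ATATA (with any letters that extend overlapping matches of the latter), which were chosen after these promoters had been read and were searched on both strands. Counted from the GENCODE start, GATTGAAT began 116 bases upstream in Eif4a3l1 and 129 bases upstream in Eif1ad6, and the nearest ATATA began 29 and 28 bases upstream. RefSeq gives Eif4a3l1 the same start but places that of Eif1ad6 further downstream, at base 87618909 in place of 87618869, so the likeness in position holds for the GENCODE start only. In the 250 bases before the RefSeq start, 0.469% of 32851 promoters held GATTGAAT and 18.2% held ATATA. Inside the chromosome 12 stretch these letters were in 4 and 11 of 13 promoters. In the part of this window before the GENCODE start, neither was found for Eif1ax, Eif1ad or Eif4a3. No promoter of Eif1a was among those searched. A match of letters describes the sequence and does not show that a factor binds.

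The positive library held 4603 cells, of which 4596 were kept, with 138303336 UMIs and a median of 29554.5 per cell. In the negative library all 3832 cells were kept, with 156406894 UMIs and a median of 39099.5. The libraries shared 3 cell barcodes. GFP stood at 205 and 0.454 CPM (UMIs of a gene scaled to 1000000 UMIs of the library) in the positive and negative library, and the 6 Zscan4 genes summed stood at 322 and 0.627 CPM, in the direction of the labels. Intervals below are 95% intervals for counting error alone, and they do not cover reads assigned to the wrong copy.

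In the positive library the summed Eif1ad members took 1950 CPM (1943 to 1957), from 269703 UMIs. In the negative library they took 2.07 CPM (1.85 to 2.30), from 323 UMIs, a ratio of 944 (847 to 1056). Eif4a3l1 had 58139 UMIs, or 420 CPM (417 to 424), in the positive library and 41 UMIs, or 0.262 CPM (0.188 to 0.356), in the negative library, a ratio of 1604 (1182 to 2235). The libraries were thus about 3 orders of magnitude apart for both kinds of copy.

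Among single Eif1ad members, Eif1ad8 had 650 CPM in the positive and 0.761 CPM in the negative library, a ratio of 855 (714 to 1032). Eif1ad15 had 564 and 0.492 CPM, a ratio of 1146 (917 to 1453). Eif1ad7 had 343 and 0.262 CPM. These were the members with the most UMIs, and the first 2 are also those whose sequence separates best from the other copies. Eif1ad6 had 181 and 0.198 CPM, and Eif1ad3 had 163 and 0.332 CPM. Eif1ad4 was lowest, at 49.0 CPM from 6777 UMIs in the positive library and 3 UMIs in the negative library, a ratio of 2555 whose counting interval ran from 874 to 12391.

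The genes were compared for size by a ratio of CPM + 1 of at least 4, among genes that reached 10 CPM on one side and 50 UMIs in total. All 7 members passed in favour of the positive library, with log2 ratios of 5.62 for Eif1ad4 to 8.57 for Eif1ad15. Every member was below 1 CPM in the negative library, so these values mainly follow the positive-library level. By the plain ratio of CPM Eif1ad4 was highest among the members, with a wide interval. Of 8042 genes that could pass, 3% did so in favour of the positive library and 0.0124%, which is 1 gene, in favour of the negative library. Since the members were picked on this contrast, nothing is read from their count.

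The reference genes differed little between the libraries. Eif1a had 182 CPM in the positive and 204 CPM in the negative library (log2 ratio -0.16). Eif1ax had 196 and 263 CPM, a log2 ratio of -0.42, and Eif1ad had 86.2 and 101 CPM, a log2 ratio of -0.22. Eif4a3 was level, at 165.9 and 165.8 CPM with a log2 ratio of 0.0013 (-0.03 to 0.04), but it was lower in the positive library by TMM scaling, at -0.29, by median of ratios, at -0.29, and by CPM outside ribosomal protein and mitochondrial genes, at -0.04. The median of all genes past the floor was 0.14, against -0.14 by TMM and by median of ratios, and all 4 reference genes lay below that median by each of these scalings, while the members lay far above it.

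**Figure D1:**
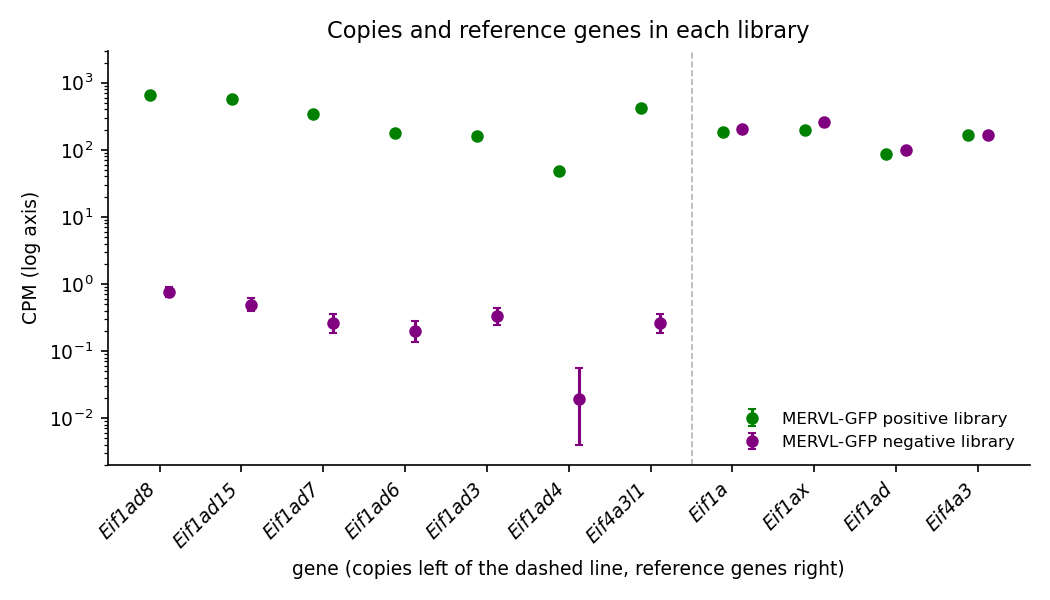
CPM of each gene on a log axis in the MERVL-GFP positive library (green) and the MERVL-GFP negative library (purple), with exact Poisson intervals. The 7 copies left of the dashed line stood at 49.0 to 650 CPM against 0.0192 to 0.761 CPM, while the reference genes Eif1a, Eif1ax, Eif1ad and Eif4a3 stood at 86.2 to 263 CPM in both.

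Apart from Eif1ad10, the remaining numbered copies also had more UMIs in the positive library. Their counts were below those of every member except Eif1ad4, which Eif1ad14 exceeded. The 11 other Eif1ad copies together had 17580 UMIs in the positive and 13 in the negative library, or 127 and 0.0831 CPM. Eif1ad14 led them with 7073 and 2 UMIs, followed by Eif1ad11 with 3861 and 6, Eif1ad18 with 2440 and 2, Eif1ad12 with 2118 and 2, and Eif1ad19 with 1794 and 1. Eif1ad2, Eif1ad9, Eif1ad13, Eif1ad17 and Eif1ad16 had 198, 39, 28, 16 and 13 positive-library UMIs and no negative-library UMIs. Against a floor of 3 UMIs in the negative library, Eif1ad2 was at least 74.6-fold higher in the positive library and Eif1ad9 at least 14.7-fold. Eif1ad10 had 0 UMIs in both libraries, and all of its sequence windows were shared with other copies. Eif4a3l2, the second copy of Eif4a3, had 1063 UMIs in the positive and 10 in the negative library, or 7.69 and 0.0639 CPM.

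The 364 member UMIs of the negative library sat in few cells. A single cell held 15 of the 41 Eif4a3l1 UMIs, and without it the library stood at 0.166 CPM of Eif4a3l1 in place of 0.262. Of its 3832 cells, 3691 had none, 107 had 1 UMI, and 11 cells with 5 or more held 205 of the 364. The cell with the most had 40 Eif1ad and 0 Eif4a3l1 UMIs beside 1 Zscan4 and 0 GFP UMIs. Another held 22 Eif1ad, 7 Eif4a3l1 and 23 Zscan4 UMIs and again no GFP. In 32 negative-library cells with a Zscan4 or GFP UMI after thinning, the summed Eif1ad members reached 62.0 CPM, against 1.58 CPM in the 3792 cells with neither.

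To compare cells at equal depth, each cell was thinned to 10000 UMIs, which left 4402 cells of the positive and 3824 of the negative library. At least 1 summed Eif1ad UMI was then found in 90.3% (89.4 to 91.2) and 1.07% (0.770 to 1.45) of the cells, respectively. Before thinning the shares were 99.2% and 3.31%. Eif4a3l1 was found in 57.5% (56.0 to 59.0) and 0.105% (0.0285 to 0.268), or 84.5% and 0.496% without thinning. A thinned Zscan4 UMI was found in 56.4% (54.9 to 57.9) of the positive-library cells, which is below the share of the Eif1ad sum and overlaps that of Eif4a3l1. The Eif1ad sum also had more UMIs, at 1950 CPM against 322 CPM for Zscan4. The shares therefore do not show which was expressed in more cells. Among single Eif1ad members the shares ran from 21.6% for Eif1ad4 to 67.7% for Eif1ad8.

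Most of these cells had few UMIs of the members. The summed Eif1ad members ran from 0 to 968 of 10000 UMIs per cell, with a median of 4, and Eif4a3l1 ran from 0 to 301, with a median of 1. The 10% of cells with the most held 61.3% of all thinned Eif1ad UMIs and 76.7% of those of Eif4a3l1. For Eif1a, Eif1ax and Eif4a3 that share was 27.0%, 26.4% and 27.7%, and their highest cells had 10, 10 and 14 UMIs. Between cells the copies were thus spread over a much wider range than these genes.

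Cells differed in how many of the 7 members they held. Of 4402 cells, 279 had none, 662 had 1, 772 had 2, 644 had 3, 461 had 4, 489 had 5, 469 had 6 and 626 had all 7. Across these cells the correlation (Pearson's r on log2 of thinned UMIs + 1) between pairs of Eif1ad members was 0.65 to 0.82, with a median of 0.72 over 15 pairs, and reads shared by near-identical copies enter it. Between single Eif1ad members and Eif4a3l1, whose sequences are unrelated, r was 0.54 to 0.68, and for the summed members it was 0.69. With Eif1a, Eif1ax, Eif1ad and Eif4a3 the summed members had r of -0.18, -0.18, -0.02 and 0.10. All cells share a library, so these values only describe it.

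The per-cell level of Zscan4, a family of zinc finger genes that marks the 2-cell-like state, was then used to class the positive-library cells. By thinned UMIs summed over Zscan4a to Zscan4f, 1918 cells had 0, 1637 had 1 to 4, 358 had 5 to 9, 252 had 10 to 19 and 237 had 20 or more. The summed Eif1ad members stood at 416 CPM (411 to 421) in the first class and at 1392, 4190, 7580 and 16248 CPM (16133 to 16364) in the next ones. Eif4a3l1 stood at 109 CPM (106 to 112), 336, 1019, 1618 and 2472 CPM (2427 to 2517). Every step up in Zscan4 was a step up in both, and in the top class the Eif1ad members alone took more than 1% of all UMIs.

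Per cell, the thinned Eif1ad sum had a median of 2 in cells without Zscan4, with a highest value of 137, and medians of 6, 33, 72.5 and 138 in the classes above. In the top class the lowest cell had 6 and the highest 684. Eif4a3l1 had medians of 0, 1, 4.5, 8 and 13 in the same order, and its lowest value was 0 in every class. Eif1ad UMIs were present in all 489 cells with 10 or more Zscan4 UMIs, whereas 38 of those cells had no thinned Eif4a3l1. All 7 members were detected in 196 of the 237 cells of the top class, which is 82.7% (77.3 to 87.3).

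The 847 cells with 5 or more Zscan4 UMIs, called Zscan4-rich, were set against the 1918 without. Summed Eif1ad members took 7982 CPM in the rich cells and 416 CPM in the others, a ratio of 19.2 (18.95 to 19.45). Eif4a3l1 took 1533 and 109 CPM, a ratio of 14.1 (13.7 to 14.4). All 7 members passed the size rule in favour of the rich cells, as did 3.69% of 8328 genes, with 0.072% in favour of the cells without Zscan4. Ratios of single Eif1ad members were 17.1 for Eif1ad8 (2541 and 149 CPM), 19.2 for Eif1ad15 (2292 and 119 CPM), 20.1 for Eif1ad7 (1467 and 72.9 CPM), 20.4 for Eif1ad3 (659 and 32.3 CPM) and 21.6 for Eif1ad6 (788 and 36.5 CPM). The ratio of Eif1ad4 was 38.4 (34.7 to 42.7), from 236 and 6.14 CPM. Several copies outside the members also had high ratios, at 32.2 (27.3 to 38.1) for Eif1ad18, 31.6 (27.8 to 36.1) for Eif1ad11, 28.9 for Eif1ad19, 26.97 for Eif1ad14 and 21.3 for Eif1ad12. Ratios of Eif1ad2 and Eif1ad9 were lower, at 10.6 (7.10 to 16.1) and 8.59 (3.46 to 24.2), from few UMIs. Eif1ad4 made up 1.48% of the Eif1ad UMIs in cells without Zscan4 and 3.43% in the top class.

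Other measures moved with Zscan4 as well. Median depth was 32806 UMIs in cells without Zscan4 and 18781 in the top class, mitochondrially encoded genes went from 23978 to 34294 CPM, and the pluripotency factors Pou5f1 and Zfp42 from 312 to 167 CPM and from 1098 to 328 CPM. A list of 17 other 2-cell-stage genes, outside Zscan4, went from 144 to 2962 CPM. Their part in the values of the copies was not tested, except that among cells with 20000 to 30000 UMIs (319 rich, 595 without Zscan4) the log2 ratio was 3.87 for the summed Eif1ad members and 2.88 for Eif4a3l1, against 4.26 and 3.80 over all depths. The ratio also depends on which cells serve as the low group, and against cells with neither Zscan4 nor GFP it was 5.10 and 4.98 on the log2 scale.

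**Figure D2:**
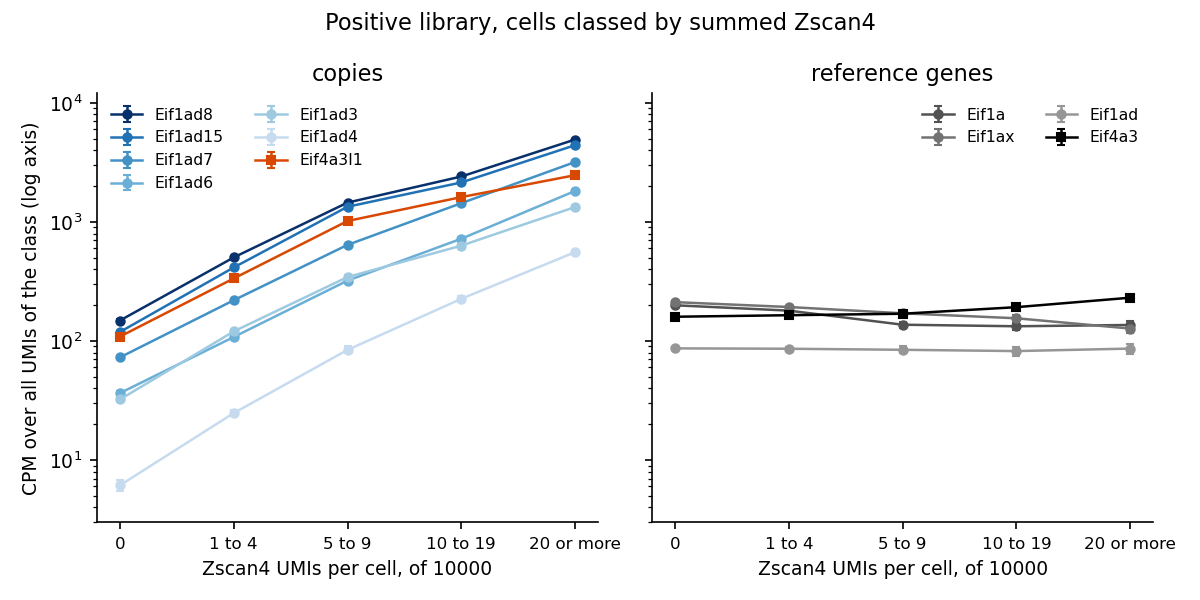
CPM (log axis, exact Poisson intervals) over all UMIs of positive-library cells classed by their thinned Zscan4 UMIs, for the 7 copies (left) and the 4 reference genes (right). Each copy was higher in each class than in the one before, Eif4a3l1 from 109 to 2472 CPM, while the reference genes stayed between 82.3 and 231 CPM.

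The reference genes showed small differences along the same classes, and not all in one direction. Eif1a stood at 200 CPM in cells without Zscan4 and 136 CPM in rich cells, a log2 ratio of -0.55, and Eif1ax at 212 and 156 CPM, a log2 ratio of -0.44. Eif1ad stood at 86.8 and 84.3 CPM, a log2 ratio of -0.04 whose counting interval included 0 and which was 0.04 among cells with 20000 to 30000 UMIs. Eif4a3 was the only one of them higher in rich cells, at 160 and 191 CPM, a log2 ratio of 0.25, and it reached 231 CPM in the top class. Of its windows of 60 bases, 81.8% were found in no other gene's transcript, against 97.1% for Eif1a and 100% for Eif1ax and Eif1ad. Reads shared with its copies may therefore enter its count, and their part was not tested. None of the 4 passed the size rule.

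Set side by side per kb of their longest annotated transcript, the copies exceeded the genes they resemble in rich cells. Eif1ad8 had 1356 CPM per kb there, Eif1ad15 had 1235, Eif4a3l1 had 974, Eif1ad7 had 797, Eif1ad6 had 426 and Eif1ad3 had 373. Eif4a3 had 126, Eif1a had 47.4, Eif1ad had 33.0 and Eif1ax had 30.2 CPM per kb. Eif1ad4 was left out because its model has no untranslated part. The order of neighbours such as Eif1ad6 and Eif1ad3 rests on how shared reads were assigned, and a count per kb is only a rough scale if reads come mainly from transcript ends.

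By that measure the 5 other Eif1ad members made up 0.898% of the summed level of these members, Eif1a and Eif1ax in the negative library. In positive-library cells with neither Zscan4 nor GFP they made up 51.9%, a value that rests on a median of 1 thinned Eif1ad UMI a cell and cannot be read as expression. In the Zscan4 classes from 0 to 20 or more they made up 66.6%, 88.1%, 96.5%, 98.1% and 99.2%. Scaling per kb lowers Eif1ax (5172 bases) and Eif1a (2865 bases) more than these members (1766 to 1873 bases). If UMIs come mainly from transcript ends, this overstates the part of the copies. Unscaled, cells without Zscan4 had 416 CPM for the summed Eif1ad members, 200 CPM for Eif1a and 212 CPM for Eif1ax. Eif4a3l1 made up 0.152% of the summed level of Eif4a3l1 and Eif4a3 in the negative library and 22.2% in cells with neither marker, where the median cell had no thinned Eif4a3l1 UMI. The part that RNA from outside the cells has in these low classes was not tested. In the Zscan4 classes it made up 39.5%, 66.1%, 85.2%, 89.0% and 91.1%. In each of the 5 Zscan4 classes the part of the eIF1A copies was larger than that of the eIF4A3 copy.

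**Figure D3:**
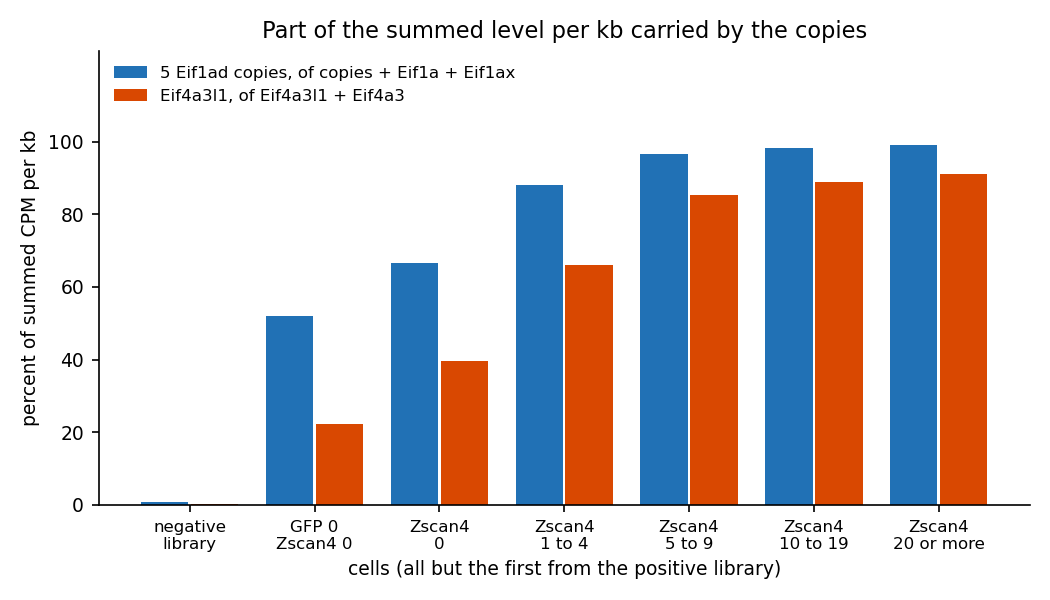
Percent of the summed CPM per kb that came from the copies, for the 5 Eif1ad members against Eif1a and Eif1ax (blue) and Eif4a3l1 against Eif4a3 (orange), in the negative library and in classes of positive-library cells. The Eif1ad bars go from 0.898% to 99.2% and the Eif4a3l1 bars from 0.152% to 91.1%. Scaling by length lowers Eif1a and Eif1ax, whose transcripts are longer, more than the copies.

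GFP, read from the same cells, gave a second ordering. Cells had 0 GFP UMIs of 10000 in 1662 cases, 1 to 4 in 1952, 5 to 9 in 596, 10 to 19 in 184 and 20 or more in 8. The summed Eif1ad members stood at 642, 2058, 4376, 6674 and 7967 CPM along these classes. The last value comes from 8 cells, 1 of which held 24.6% of their Eif1ad UMIs, and without it that class stood at 6636 CPM (6255 to 7035), no higher than the class before. Eif4a3l1 stood at 98.6, 402, 1024, 2035 and 1949 CPM, and the wide counting interval of the last value (1754 to 2159) holds the one before. A single cell of the 8 held 47.5% of their Eif4a3l1 UMIs, and without it the last value was 1109 CPM. Across cells the summed Eif1ad members had r = 0.75 with summed Zscan4 and 0.55 with GFP (Spearman's rho 0.67 and 0.55, 4402 cells). For Eif4a3l1 r was 0.57 and 0.45 (rho 0.50 and 0.40). Zscan4 and GFP themselves had r = 0.42.

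Crossing both markers showed where the copies sat. In 998 cells with neither, the summed Eif1ad members had 232 CPM (227 to 238) and Eif4a3l1 had 47.6 CPM (45.35 to 50.01). With GFP alone (920 cells) they had 622 and 178 CPM, and with Zscan4 alone (664 cells) 1295 and 180 CPM. With both markers (1820 cells) they had 4078 and 882 CPM. The Eif4a3l1 level with GFP alone rested in part on 1 cell, which held 582 UMIs or 10.8% of the class. Without the cell with the most, it was 159 CPM (155 to 164) with GFP alone and 175 CPM (169 to 181) with Zscan4 alone, and the median cell had 0 and 1 thinned UMIs. For the Eif1ad sum the median cell had 3 thinned UMIs in both of these classes, and the higher CPM with Zscan4 alone came from the upper cells, with a 75th percentile of 12 against 6 and a highest cell of 454 against 137. Classing cells by GFP in place of Zscan4, at the same bounds, gave log2 ratios of 2.93 for the Eif1ad members and 3.65 for Eif4a3l1.

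No class of positive-library cells was free of the members. In cells with neither marker, 78.4% (75.7 to 80.9) had a thinned Eif1ad UMI and 36.7% (33.7 to 39.7) had one of Eif4a3l1, at a median depth of 33491 UMIs. In negative-library cells with neither marker, at a median depth of 39135.5 UMIs, 0.897% and 0.0791% had one. The counts in the first were low, with a median of 1 and a 90th percentile of 4 for the Eif1ad sum, and its highest cell had 54. A share of cells with a UMI at this level cannot be read as expression, and the part that RNA from outside the cells has in it was not tested. Of the 2185 cells with 5 or more Eif1ad UMIs, 81.2% had Zscan4, 82.7% had GFP and 4.21% had neither.

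**Figure D4:**
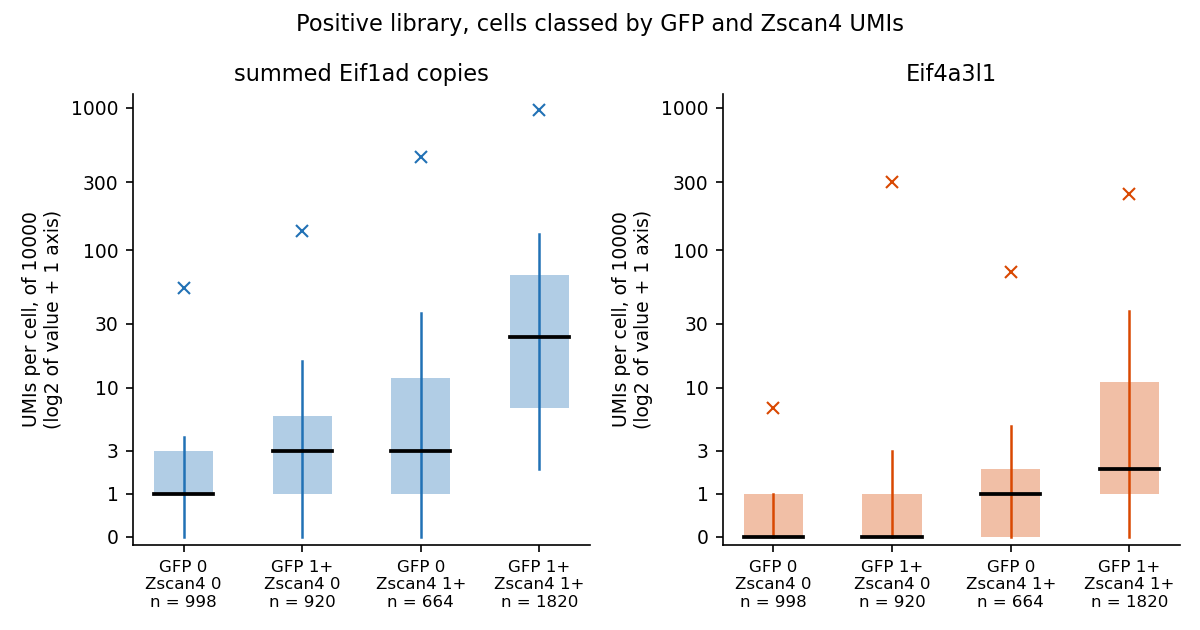
Thinned UMIs per cell (of 10000, on a log2 of value + 1 axis) of the summed Eif1ad members and of Eif4a3l1 in positive-library cells classed by GFP and Zscan4; black lines are medians, boxes run from the 25th to the 75th percentile, vertical lines from the 10th to the 90th, and crosses are the highest cells. The Eif1ad median is 1 in cells with neither marker, 3 with either alone and 24 with both.

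Eif1ad members and Eif4a3l1 were not always high in the same cells. Of 1196 cells with 20 or more Eif1ad UMIs, 334 also had 20 or more of Eif4a3l1, 735 had 1 to 19 and 127 had none. Of 351 cells with 20 or more Eif4a3l1 UMIs, only 17 had fewer than 20 of Eif1ad, and these had a median of 15. The cell with the most Eif4a3l1 had 301 UMIs of it beside 63 of Eif1ad, 0 of Zscan4 and 19 of GFP. The cell with the most Eif1ad had 968 beside 35 of Eif4a3l1, 15 of Zscan4 and 3 of GFP. By these bounds 95.2% of the cells high in Eif4a3l1 were high in Eif1ad, and 27.9% of the cells high in Eif1ad were high in Eif4a3l1.

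The copies were also looked at in cells rich in markers of primitive endoderm, the extraembryonic layer that forms beside the epiblast. A threshold of 50 thinned UMIs over a list of 14 endoderm genes, such as Gata6 and Sparc, was set after the data had been seen. It marked 28 of the 847 Zscan4-rich cells. In them Eif4a3l1 stood at 2833 CPM, against 1490 CPM in the other 819 rich cells, while the summed Eif1ad members stood at 6079 and 8044 CPM. Per cell the median was 26 and 7 UMIs for Eif4a3l1, and 50.5 and 66 for the Eif1ad sum. In the 113 endoderm-rich cells without Zscan4 both were near their level in other cells without Zscan4, at 117 and 109 CPM for Eif4a3l1 and 431 and 415 CPM for the Eif1ad sum. Without the top cell of each class, Eif4a3l1 stood at 90.03 and 99.03 CPM there, and at 2604 and 1464 CPM in the rich cells. The 76 endoderm-rich cells of the negative library had 4 Eif1ad UMIs and none of Eif4a3l1.

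The parts that single copies had in the Eif1ad sum moved along Zscan4, mostly not in 1 direction, and differed along the endoderm list. Over the 5 Zscan4 classes, from 0 to 20 or more, Eif1ad8 gave 35.8%, 36.2%, 34.7%, 31.8% and 30.3% of the Eif1ad UMIs. Eif1ad15 was largest in the middle class, at 28.7%, 29.8%, 32.0%, 28.3% and 27.2%. Eif1ad7 and Eif1ad6 were smallest there, at 17.5%, 15.8%, 15.3%, 18.98% and 19.6% and at 8.78%, 7.77%, 7.68%, 9.54% and 11.2%. The part of Eif1ad3 stayed between 7.77% and 8.65%, and Eif1ad4 rose in each class between the ends given above. In the 28 endoderm-rich Zscan4-rich cells Eif1ad15 gave 45.9% (44.3 to 47.4), against 28.3% in the other rich cells. Eif1ad7 gave 9.21% against 18.6%, and Eif1ad3 gave 3.33% against 8.38%. The cell with the most UMIs held 11.1% of the Eif1ad UMIs of the 28, and without it Eif1ad15 gave 46.5%. Of the 28, 27 had 20 or more Eif1ad UMIs before thinning, and Eif1ad15 was the most counted copy in 18 of these, or 66.7%, against 281 of 779, or 36.1%, of the other rich cells. Among endoderm-rich cells without Zscan4 the parts were 42.0% for Eif1ad15, 9.14% for Eif1ad7 and 3.09% for Eif1ad3, with Eif1ad8 at 37.6%. Of these 113 cells only 14 had 20 or more Eif1ad UMIs before thinning. Eif1ad15 was the most counted copy in 9 of the 14, or 64.3%, against 71 of 268 such cells below the endoderm threshold, or 26.5%. Over all UMIs without the top cell of each class, Eif1ad15 gave 38.5%, against 27.5% below the endoderm threshold. Among the 113 cells Eif1ad8, at 39.7%, then had the largest part. Eif1ad15 and Eif1ad8 are the 2 members whose sequence is mostly their own, so their balance depends least on shared reads.

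**Figure D5:**
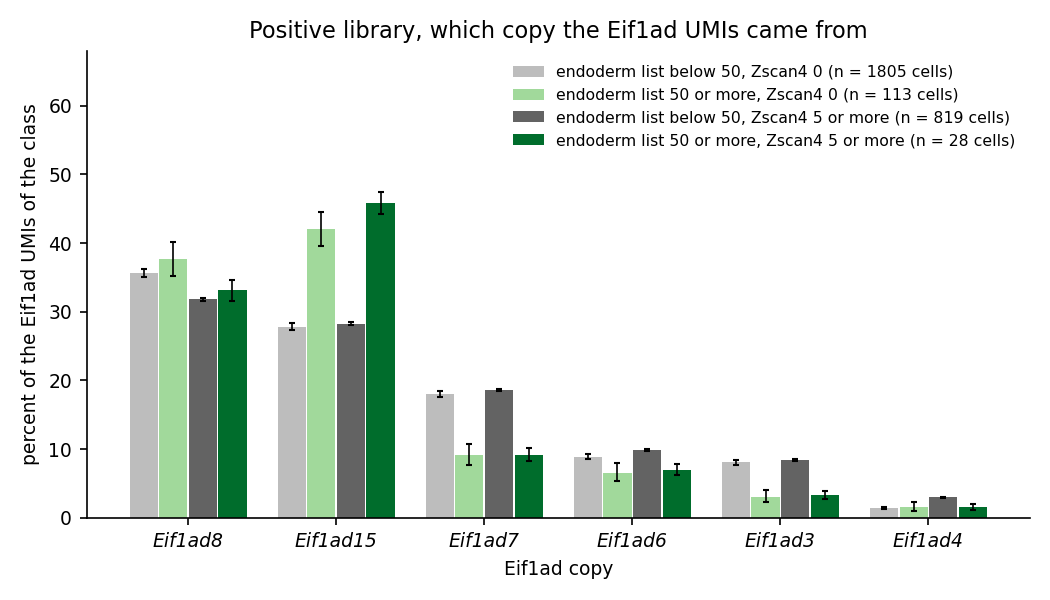
Percent of the Eif1ad UMIs that came from each of the 6 copies (exact binomial intervals) in positive-library cells classed by the endoderm list (threshold 50 thinned UMIs) and by Zscan4. Eif1ad15 stands at 42.0% and 45.9% in the endoderm-rich classes and at 27.8% and 28.3% in the others, and Eif1ad7 and Eif1ad3 are lower there.

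The wider machinery was read from a pair of gene lists. Of 50 translation initiation genes, 49 were past the floor and 0 passed the size rule in either direction, both between libraries and between rich cells and cells without Zscan4. Over all genes 3% and 3.69% passed as higher and 0.0124% and 0.072% as lower in these comparisons, so a count of 0 in a list of this length is near the background and is not a result about the list. Their median log2 ratio was 0.09 between libraries and -0.10 within the positive library, beside 0.14 and -0.09 over all genes past the floor. At the ends were Eif4g3, a scaffold of the cap-binding complex, at 20.9 and 8.36 CPM in the positive and negative library, and Eif4ebp1, a repressor of cap-dependent initiation, at 441 CPM in rich cells and 739 CPM in cells without Zscan4. Both were picked out after their values were seen.

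Of 19 genes of the exon junction complex list, 1 passed the size rule as higher in both comparisons, a count that is also near the 3% and 3.69% over all genes. This was Cwc22, a splicing factor that brings eIF4A3 to the spliceosome. It had 213 and 33.2 CPM in the positive and negative library, and 635 and 86.0 CPM in rich cells and in cells without Zscan4, log2 ratios of 2.64 and 2.87. Along the Zscan4 classes it stood at 86.0, 192, 515, 690 and 807 CPM. The list medians were 0.17 and -0.11. Magohb, which encodes a partner of eIF4A3 in the complex, was lowest within the positive library, at 16.3 CPM in rich cells and 34.5 CPM in cells without Zscan4, and was picked out after its values were seen. Between the libraries it stood at 29.1 and 28.4 CPM, a log2 ratio of 0.04.

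Among 14250 genes detected in at least 1% of the thinned cells, and leaving out the 7 members, those whose pattern over the 4402 cells was most like the summed Eif1ad members were Gm21761 and Gm20767 (r = 0.75 for both), Gm21818 (0.71), Eif1ad14 (0.68) and Platr31 (0.67). Zfp560, Nelfa, Prex2, Zscan4d and Zscan4-ps2 completed the 10, down to r = 0.63. For Eif4a3l1 the first 4 were Gm21761 (0.75), Gm21818 (0.74), Gm20767 (0.72) and Platr31 (0.70). Nelfa, Gm44739, Gm13228, Cwc22, Zfp560 and Scamp1 followed, down to r = 0.67. The lists shared 6 genes, 60% of each. Of the 14 genes on either list, 8 stood between 0.0128 CPM (Eif1ad14) and 0.467 CPM (Zscan4d) in the negative library. The other 6 were counted there at 4.32 CPM for Scamp1, 9.74 for Gm13228, 11.4 for Prex2, 24.8 for Zfp560, 33.2 for Cwc22 and 47.5 for Nelfa. Nelfa, a subunit of the negative elongation factor, had 516 CPM in the positive library.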

How the data were processed

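Single-cell transcript counts came from 1 library a group. What the authors deposited are raw counts of genes in cells, taken as UMIs since barcodes have 16 bases; per the submitters' processing notes FastQC 0.11.2, Trim Galore 0.6.4 and STAR 2.7.6a were used with mm10. The extraction text in the labels names bulk kits only. Cells needed 1000 UMIs, 500 genes and at most 20% mitochondrial UMIs. Counts were summed, scaled to CPM and compared as log2 of CPM + 1, with exact Poisson, conditional and Clopper-Pearson intervals; doublets were not called. Cells were thinned without replacement for classes, shares and correlations. Of the feature IDs, 52081 of 55415 matched GENCODE M21. Named genes were the members, the 4 reference genes, every other numbered copy, list genes past the size rule, and the 10 genes outside the members best correlated with either target; outside this rule, Eif4g3, Eif4ebp1 and Magohb were picked out after their values were seen. Members and lists were chosen with earlier results of these data known. On simulated counts over 55415 genes the size rule recovered 100 of 100 raised and 100 of 100 lowered genes with 0 false calls. That simulation held counting noise alone, and its changes were planted above the bound of the rule in well-counted genes. It checks the code only, as differences between libraries or cells and shared reads were not simulated. edgeR 4.0.16 (TMM only), scipy 1.17.1 and numpy 2.4.6 ran under Python 3.11.15. Other filters, scalings, thinning depths, class bounds and pseudocounts were tried.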

Additional observations from a re-analysis of the deposited data

How the results depend on the processing

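No paired analysis was possible because a single library stands for either group, and leave-one-out does not apply. Between libraries, the log2 ratio of the summed Eif1ad members was 9.31 and became 9.07 by TMM, 9.07 by median of ratios, 9.62 as the mean of each cell's CPM and 9.81 with a pseudocount of 0.1. For Eif4a3l1 it was 8.38 and became 8.20, 8.21, 8.97 and 10.18 in that order, and 8.70 by CPM that leave out mitochondrial and ribosomal protein genes. The median of the 4 reference genes was -0.19 and became -0.48 by TMM, -0.48 by median of ratios and -0.24 outside those genes. Eif4a3 turned from 0.0013 to -0.29 by TMM, -0.29 by median of ratios and -0.043 outside those genes, settings that also moved the median of all genes, from 0.14 to -0.14, -0.14 and 0.10.

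Within the positive library, rich cells against cells without Zscan4 gave 4.26 for the Eif1ad sum and 3.80 for Eif4a3l1. With rich cells at 20 or more these were 5.29 and 4.49, at 1 or more 2.96 and 2.62, after thinning to 5000 UMIs 4.21 and 3.69, and by GFP classes 2.93 and 3.65. From thinned UMIs Eif4a3l1 gave 3.74. Among alternatives chosen after seeing the data, cells with neither marker as the low group gave 5.10 and 4.98, and cells with 20000 to 30000 UMIs gave 3.87 and 2.88. The median of the reference genes, at -0.24, became -0.12 with rich cells at 1 or more and -0.14 in that depth band, where Eif1ad turned from -0.042 to 0.045; apart from class makeup and depth, which these settings change by construction, the cause was not tested.

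The share of cells with a UMI depends on depth. For the Eif1ad sum 90.3% became 99.2% without thinning, 78.7% at 5000 UMIs and 75.9% from 2 UMIs; for Eif4a3l1 57.5% became 84.5%, 43.6% and 33.7%. The correlation with Zscan4 was 0.75 for the Eif1ad sum and became 0.67 by Spearman and 0.55 with GFP. For Eif4a3l1 it was 0.57 and became 0.50 by Spearman, 0.50 in cells with Zscan4 and 0.45 with GFP. At a ratio of at least 2 the size rule counted 564 higher and 80 lower genes between libraries, against 241 and 1, and 655 and 228 within the positive library, against 307 and 6; without a floor it counted 2 lower between libraries. Of 190 other values for single members and reference genes, 95 stayed within their counting interval, 91 left it without a change of sign and 4 changed sign, as given above. Leaving out the cell with the most UMIs of a cell class or library, chosen after seeing the data, took 40 of 43 class levels of the Eif1ad sum and Eif4a3l1 outside their counting interval.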

Other observations

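Copies that differ in how they are annotated were counted side by side. Of the 17 Eif1ad copies on chromosome 12, 7 had models with untranslated parts, and these included Eif1ad8 and Eif1ad15, with 89940 and 78041 positive-library UMIs. Eif1ad14, Eif1ad4 and Eif1ad11, whose models hold coding bases only, had 7073, 6777 and 3861. A full model did not always go with a high count. Eif1ad19 has one of 1863 bases, with 89.1% of its windows in no other gene's transcript, and had 1794 UMIs, fewer than these 3 copies. Eif1ad2 has a full model, with the coding sequence of Eif1ad6 and 4.52% of its windows in no other gene's transcript, and had 198 UMIs. How annotation length and shared reads bear on these counts was not tested.

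The values rest on 1 library a group, on an unknown treatment of reads that match several copies, and on cells that were not checked for doublets.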
